A study of Mus musculus with 24 samples.

Results

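The lysosomal proteases studied were 9 cathepsins (Ctsa, Ctsb, Ctsc, Ctsd, Ctsh, Ctsk, Ctsl, Ctss and Ctsz) and legumain (Lgmn), chosen by gene symbol. Each of the 10 symbols matched a single row among the 37979 genes of the deposited table, and all 10 passed the filter on low values, which left 17156 genes for testing. RNA was sequenced from macrophages and monocytes sorted out of the lungs of male C57BL/6 mice aged 10 to 16 weeks, in 8 groups of 3 libraries. MacA cells were gated as SiglecF+/CD11c+, and MacB cells as CD11b+/Ly6G- with further gates. MacB1 was CD64low/CD11c+, MacB2 was CD64med/CD11c- and MacB3 was CD64hi/CD11c+. Uninjected mice, which carried no tumour, gave the naive groups MacA-N, MacB1-N and MacB2-N from all lung lobes. Mice with LLC-Luc cells (Lewis lung carcinoma cells that carry luciferase) injected into the left lung lobe gave the remaining groups, from that lobe with its tumour. These were MacB3-2wk, MacB2-2wk and MacA-2wk, taken 2 weeks after injection, and MacB3-3wk and MacB2-3wk, taken after 3 weeks. The model thus rests on 1 transplanted cell line, and a comparison of tumour with naive also compares a left lobe with a whole lung. Each library held cells pooled from 3 to 5 mice, and each group was collected in 3 separate experiments, so p-values measure the spread between experiments.

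Cathepsins are made as inactive precursors, sorted to endosomes and lysosomes and matured there by proteolysis. In macrophages they degrade phagocytosed and endogenous protein, trim antigens and cut the invariant chain that occupies new class II molecules, and some are secreted and act on extracellular matrix. Most are cysteine proteases held in check by cystatins. Cathepsin D is an aspartic protease and cathepsin A a serine carboxypeptidase. Legumain cuts after asparagine, and cathepsins are among its substrates.

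The sorting markers followed the labels. Siglecf averaged 231 FPKM (fragments scaled to transcript length and library size) in MacA-N and 146 in MacA-2wk, against 0.942 to 5.25 in the MacB groups. The CD64 gene Fcgr1 averaged 9.54 in MacB1-N, 73.2 to 98.8 in MacB2 and 131 to 181 in MacB3. Itgax, which encodes CD11c, averaged 7.33 to 12.01 in the CD11c- MacB2 groups and 71.2 to 214 in the CD11c+ groups. Ly6g was listed at 0 in all 24 libraries. FPKM gives no absolute depth, and the depths estimated from steps between low values were 0.520 to 1.00 of the deepest library. Among the libraries of a group, replicate 3 of MacA-2wk stood apart, with a summed level of 6 fibroblast markers of 250.01 FPKM against 31.7 and 26.1. Replicates 2 and 3 of MacA-2wk each correlated best with a MacA-N library across genes. All MacA libraries ran on lane 1, whereas replicates 1, 2 and 3 of each MacB group ran on lanes 2, 3 and 7, so MacA and MacB differences cannot be told apart from lane. In sorted bulk samples, fewer cells of a type and less RNA per cell cannot be told apart.

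By Ensembl identifier, the genes lie in GRCm38 (GENCODE M21) as follows, each as a protein-coding gene whose whole span is given. Ctsd lies at chr7:142375911-142388038 (- strand), Ctsk at chr3:95499256-95509362 (+ strand) and Ctss at chr3:95526786-95556403 (+ strand). Ctsl lies at chr13:64359337-64370890 (- strand), Lgmn at chr12:102394084-102439813 (- strand) and Ctsb at chr14:63122462-63145923 (+ strand). Ctsc lies at chr7:88278085-88310888 (+ strand), Ctsh at chr9:90054152-90076089 (+ strand), Ctsz at chr2:174427493-174439039 (- strand) and Ctsa at chr2:164832873-164841032 (+ strand). Ctsk and Ctss are neighbours on the same strand, with 17423 bp between them. Ctsa overlaps 1515 bases of Pltp and Ctsb overlaps 774 bases of Fdft1, both on the opposite strand. Pltp averaged 128 to 551 FPKM by group and Fdft1 3.88 to 9.39. The sources used here do not give strand use in counting, so reads from these stretches can be shared. On their own strand, Ctsd overlaps 6757 bases of Gm49369, Ctsl 395 of Gm49230 and Ctss 557 of Hmgb1-ps5. Hmgb1-ps5 averaged 1.41 to 7.03 FPKM by group, and the 2 others have no row in the deposited table. On the opposite strand, Ctsc overlaps 4743 bases of Gm26522 and Ctsl 1971 of Gm47123, which also have no row there. Ctsa overlaps 584 bases of Neurl2 and Ctsz 10 of Nelfcd on that strand as well. The levels of these proteases are uncertain to that extent.

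RefSeq promoter windows of GRCm38.p6 were at hand for 8 of the 10 genes (2 each for Ctsa and Lgmn), and Ctsb and Ctsh had none. The 250 bases before each start were searched on both strands for CACGTG, the E-box core, for its extended form TCACGTGA, which the MiT/TFE factors that drive lysosomal genes are known to bind, and for GAAA, any 2 bases and GAAA, a core of interferon response elements. CACGTG lies within every TCACGTGA and was in windows of Ctsa, Ctsd, Ctsl and Lgmn and in 6.02% of all 32851 windows. TCACGTGA was in windows of Ctsd and Ctsa and in 0.785% of all windows. Neither Ctsa nor Lgmn, which have 2 windows each, held CACGTG or TCACGTGA in both of its windows. The interferon response core, searched after the Ctss sequence had been read, was in the Ctss window and in 2.98% of all. The 30 bases around TCACGTGA are shown for Ctsd and Ctsa, which share these letters and differ in how far their levels spread across the groups, with TCACGTGA in capitals (chr7:142387908-142387937, - strand, and chr2:164833749-164833778, + strand).
Ctsd: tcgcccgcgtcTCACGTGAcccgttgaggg
Ctsa: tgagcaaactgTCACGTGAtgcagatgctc
The 250 bases before the starts of the neighbours Ctsk and Ctss are shown because their levels spread most and nearly least across the groups (chr3:95498960-95499209 and chr3:95526536-95526785, + strand). Capitals mark the interferon response core in Ctss, and the Ctsk window held none of the 3 motifs.
Ctsk: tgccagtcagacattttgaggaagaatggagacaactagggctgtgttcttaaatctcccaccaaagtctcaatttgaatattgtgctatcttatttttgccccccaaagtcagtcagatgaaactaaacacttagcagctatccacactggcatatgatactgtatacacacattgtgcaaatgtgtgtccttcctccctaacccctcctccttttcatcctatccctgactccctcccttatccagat
Ctss: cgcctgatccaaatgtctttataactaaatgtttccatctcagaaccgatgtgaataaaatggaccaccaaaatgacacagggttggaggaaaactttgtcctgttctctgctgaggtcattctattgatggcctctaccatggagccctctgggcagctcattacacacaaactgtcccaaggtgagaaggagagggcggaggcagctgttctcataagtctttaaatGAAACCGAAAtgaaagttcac
A match of letters is a description of the window and not evidence of binding.

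The genes differed widely in how far their level moved between groups. On the FPKM scale, which is per length and so lets genes be compared, the highest group means were 3665 FPKM for Ctsc, 2717 for Ctsa, 2335 for Ctsd and 1708 for Ctss, against 271 for Ctsl and 236 for Ctsk. The highest group mean was 306 times the lowest for Ctsk, 19.8 times for Ctsd, 12.6 times for Ctsl, 10.97 times for Ctsc and 8.85 times for Lgmn. For Ctsh, Ctsz, Ctsb, Ctss and Ctsa this ratio was 2.57 to 3.50.

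Ctsd, the aspartic endoprotease, was at 2667, 1921 and 2195 FPKM in the MacA-N libraries and at 3009, 2671 and 1325 in MacA-2wk. In MacB2 it was at 101, 113 and 139 in naive lungs, 251, 230.2 and 249 at 2 weeks and 323, 449 and 365 at 3 weeks. MacB3-2wk libraries held 922, 1171 and 1018, MacB3-3wk 1034, 1377 and 1189 and MacB1-N 87.1, 115 and 222. MacA lay highest and naive MacB lowest, and the 3 MacB2 groups did not overlap each other. The 2 MacA groups overlapped, as did the 2 MacB3 groups, MacA-2wk and MacB3-3wk, and MacB1-N and MacB2-N.

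Ctsk, a collagen-degrading cysteine protease best known from osteoclasts, was at 133, 77.8 and 120.3 FPKM in MacA-N and 309.9, 232 and 166 in MacA-2wk. It was far lower in naive MacB cells, at 0.493, 0.876 and 8.73 in MacB1-N and 0.536, 0.253 and 1.52 in MacB2-N. Tumour lungs gave 77.5, 22.99 and 53.8 in MacB2-2wk, 26.3, 61.9 and 95.9 in MacB2-3wk, 15.95, 27.9 and 29.4 in MacB3-2wk and 14.3, 27.8 and 27.2 in MacB3-3wk. Every MacB library from a tumour lung was thus above every naive MacB library, and every MacA-2wk library was above all others. Ranges of the 4 tumour MacB groups overlapped.

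Ctsl, a broad lysosomal cysteine endopeptidase, was lowest in naive MacB cells, at 20.8, 17.3 and 26.3 FPKM in MacB1-N and 20.04, 35.2 and 32.9 in MacB2-N. MacB2-2wk held 64.8, 56.2 and 104, MacB2-3wk 181, 222 and 207, MacB3-2wk 164, 296 and 216 and MacB3-3wk 249, 316 and 249. MacA-N held 70.5, 74.4 and 87.4 and MacA-2wk 123, 103 and 178. Ctsl was therefore the one gene of the set in which MacB2-3wk reached the range of MacB3-2wk while clear of MacB2-2wk.

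Lgmn split the groups into MacB3 and the rest. MacB3-2wk libraries were at 633, 629 and 682 FPKM and MacB3-3wk libraries at 624, 704 and 689. The other 18 libraries lay between 63.1 and 173 FPKM. Ctsb, a cysteine protease with endopeptidase and dipeptidyl carboxypeptidase activity, had the same shape, with MacB3-2wk at 884, 953 and 908, MacB3-3wk at 861, 1257 and 923 and all other libraries between 284 and 508. No library from outside MacB3 reached the MacB3 range of Ctsb or Lgmn.

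Ctsc, the dipeptidyl peptidase that activates granule serine proteases, was at 3268, 3812 and 3916 FPKM in MacB3-2wk and 3118, 2752 and 3164 in MacB3-3wk. MacB1-N was lowest, at 360.3, 324 and 318, and the remaining 5 groups averaged 931 to 1294. Both MacB3 groups were clear of all others, and MacB1-N lay below every library of the other groups. Ctss, the cysteine protease that completes invariant chain cleavage in antigen-presenting cells and stays active at neutral pH, averaged 1428 to 1708 in the MacA and MacB3 groups and 570.1 to 806 in MacB1 and MacB2. The lowest library of the MacA and MacB3 groups (replicate 3 of MacA-2wk, 1052) was still above the highest of MacB1 and MacB2 (940.2).

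The remaining exopeptidases are Ctsz, Ctsh and Ctsa. Ctsz, a carboxypeptidase, averaged 856 ± 159 FPKM (SD, n = 3) in MacB3 at 2 weeks, 773 ± 72.1 at 3 weeks and 647 ± 56.8 in MacA-N, against 262 to 338 in MacB1 and MacB2. In MacA-2wk its libraries spread from 286 to 681, across the gap between these groups. Ctsh, an aminopeptidase, averaged 1201 ± 140.1 in MacB3 at 2 weeks and 1089 ± 188 at 3 weeks, against 343 to 712 elsewhere. Ctsa, which also protects other lysosomal enzymes, spread widely within groups, with 471, 1179 and 1524 in MacB2-3wk and 2511, 2393 and 987 in MacB3-3wk. Of the 8 groups ordered by Ctsa, the sole neighbours that did not overlap were MacB3-2wk (2668, 2482 and 3001) and MacA-N (1719, 2359 and 1857).

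**Figure D1:**
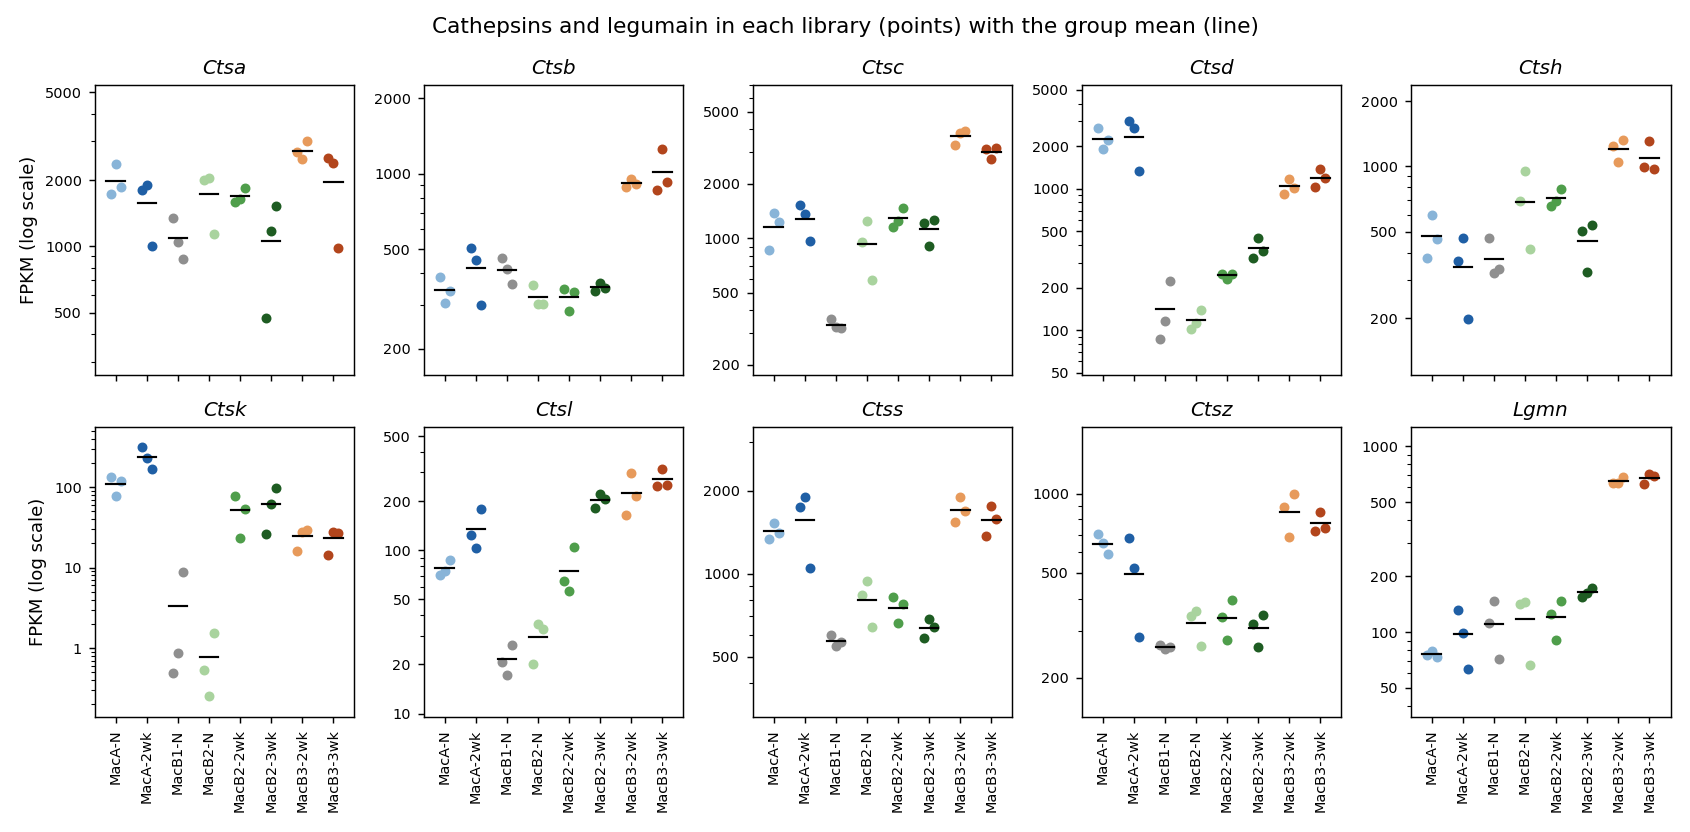
FPKM of each of the 10 genes (log axes, which differ between panels) in the 24 libraries by group; points are libraries in replicate order and lines are group means. Lgmn and Ctsb separate MacB3 from all other groups, Ctsd is highest in MacA, and Ctsk lies below 10 FPKM in all 6 naive MacB libraries.

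Summed over the 10 genes, the level was 12997 ± 778 FPKM in MacB3-2wk and 11588 ± 1120.4 in MacB3-3wk (SD, n = 3). It was 8564 ± 362 in MacA-N, 8482 ± 2566 in MacA-2wk, 3320.3 ± 353 in MacB1-N and, in MacB2, 5063 ± 1313 in naive lungs, 5597 ± 497 at 2 weeks and 4744 ± 701 at 3 weeks. The make-up of this sum differed by population, given here as the mean over 3 libraries of each gene's share. Ctsd gave 26.5% of it in MacA-N and 26.98% in MacA-2wk, where it was the most abundant of the 10. In MacB2 it gave 2.52% in naive lungs, 4.36% at 2 weeks and 8.07% at 3 weeks. Ctsa was the most abundant in MacB1-N (32.5%), MacB2-N (33.9%) and MacB2-2wk (30.2%). Ctsc was the most abundant in MacB2-3wk (24.03%), MacB3-2wk (28.2%) and MacB3-3wk (26.3%).

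**Figure D2:**
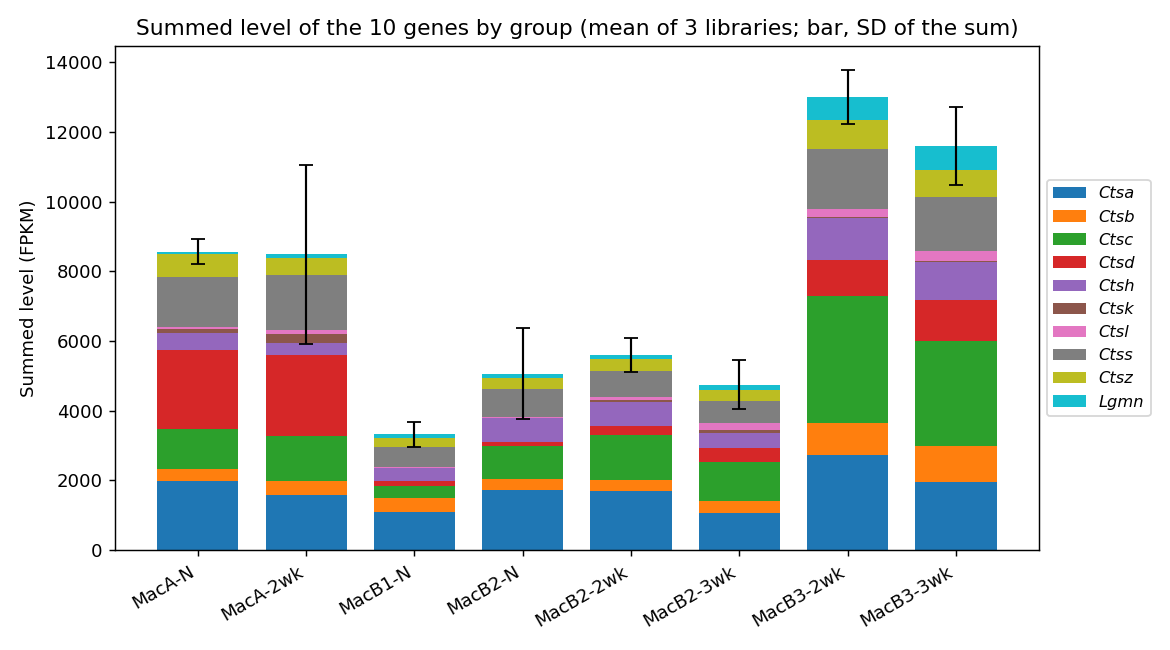
Summed FPKM of the 10 genes by group (vertical axis, from 0), with each gene's mean of 3 libraries as a stacked segment and the SD of the sum as a bar. MacB3 has the tallest columns, and the Ctsd segment is tall in MacA and short in naive MacB1 and MacB2.

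In naive lungs, MacB1 and MacB2 cells had lower levels of several cathepsins than MacA cells, and Ctsk and Ctsd were lowest relative to MacA. A total of 6 genes (Ctsc, Ctsd, Ctsk, Ctsl, Ctss and Ctsz) were lower in MacB1-N and none higher, where 8.71% of all tested genes were lower and 15.0% higher. Calls required an adjusted p under 0.05 in limma and a fold of at least 2. Ctsk differed most (log2 fold change -5.17, SE 0.60, adjusted p = 1.65e-06), followed by Ctsd (-4.09, SE 0.30, adjusted p = 4.48e-09). The values for Ctsl, Ctsc, Ctss and Ctsz were -1.82, -1.77, -1.32 and -1.30, with the largest adjusted p at 0.00036. In MacB2-N, 4 were lower (Ctsd, Ctsk, Ctsl and Ctsz), where 10.2% of tested genes were lower and 10.7% higher. The log2 fold changes were -6.00 for Ctsk (adjusted p = 2.16e-07), -4.25 for Ctsd (adjusted p = 2.03e-09), -1.40 for Ctsl (adjusted p = 0.000471) and -1.01 for Ctsz (adjusted p = 0.00325).

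The median log2 fold change of the 10 was -1.31 for MacB1-N and -0.60 for MacB2-N, against 0.12 and 0.03 over all tested genes. Both comparisons use the same MacA-N libraries. The call of Ctsz in MacB2-N lay at the fold limit and was lost without MacA-N replicate 1 (-0.95) or without MacB2-N replicate 3 (-0.88). Lgmn (0.47 and 0.54), Ctsb (0.26 and -0.10), Ctsh (-0.34 and 0.47) and Ctsa (-0.87 and -0.23) passed in neither.

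Within both naive MacB groups, replicate 3 had the highest Ctsk and Ctsd. The summed level of 8 alveolar macrophage markers was also highest there, at 753, 696 and 1257 FPKM in MacB1-N and 391, 435 and 691 in MacB2-N, against 8428 to 10608 in MacA-N. All 8 of these markers were at 1 FPKM or more in every MacB1-N library, and 6 to 8 of them in MacB2-N. Their part in the Ctsk and Ctsd values was not tested.

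Between the naive MacB populations, 1 gene differed. Ctsc was lower in MacB1-N, at 334 against 931 FPKM (log2 fold change -1.41, SE 0.25, adjusted p = 0.00104), where 1.70% of tested genes were lower and 3.50% higher. This call was lost when the 2 groups were fitted alone (adjusted p = 0.078). Without MacB2-N replicate 3, Ctsh was lower in MacB1-N as well (log2 fold change -1.13, adjusted p = 0.0262). That library held 324 FPKM summed over 6 endothelial markers, against 94.2 and 83.03 in replicates 1 and 2. The 6 epithelial markers summed to 3074 to 12858 FPKM in MacB1-N and 3113 to 10294 in MacB2-N, and their part was not tested. MacB1-N also held 232 to 334 FPKM of 6 dendritic cell markers, against 28.2 to 37.4 in MacB2-N.

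In MacA cells, none of the 10 genes passed the test 2 weeks after tumour cell injection, by limma, where 0.787% of tested genes did. At an unadjusted p under 0.05 the count was 1 (Ctsl), for which the share of all tested genes is not given here. Ctsk had a log2 fold change of 1.08 (95% interval -0.18 to 2.34, adjusted p = 0.536). For Ctsl it was 0.76 (95% interval 0.20 to 1.32, adjusted p = 0.263). The other 8 had log2 fold changes of -0.54 to 0.30, and the median of the 10 was 0.12 against 0.05 over all tested genes. Replicate 3 of MacA-2wk had the lowest value of its group for 9 of the 10 genes and the highest for Ctsl (178 FPKM), and it was also the library with the raised fibroblast markers. Without it the log2 fold changes of Ctsk and Ctsl were 1.31 and 0.55 and neither passed. Without replicate 2 they were 1.07 and 0.93, and neither passed.

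In MacB2 cells, Ctsk, Ctsl and, at 3 weeks, Ctsd were higher in tumour-bearing lungs, and the other 7 genes did not pass at either time. At 2 weeks Ctsk and Ctsl passed and none was lower, where 1.66% of tested genes were higher and 0.227% lower. Ctsk averaged 51.4 FPKM against 0.771 (log2 fold change 4.79, SE 0.60, adjusted p = 0.000231), a difference that log2(FPKM + 1) understates because the naive level is below the pseudocount. Ctsl averaged 75.2 against 29.4 (log2 fold change 1.31, SE 0.27, adjusted p = 0.0121). The Ctsl call was lost without MacB2-N replicate 1, without MacB2-2wk replicate 3 and when the 2 groups were fitted alone (adjusted p = 0.0705, 0.0883 and 0.23). Ctsd was at 243 against 118 FPKM, but its adjusted p was 0.0786 (log2 fold change 1.05, 95% interval 0.42 to 1.68).

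At 3 weeks the 3 higher genes were Ctsk (log2 fold change 5.02, SE 0.60, adjusted p = 8.67e-06), Ctsl (log2 fold change 2.78, SE 0.27, adjusted p = 8.60e-07) and Ctsd (log2 fold change 1.68, SE 0.30, adjusted p = 0.000485). None was lower, and 9.67% of tested genes were higher and 5.04% lower. The 2 time points share their naive libraries. Compared directly, MacB2-3wk exceeded MacB2-2wk in Ctsl alone (203 against 75.2 FPKM, log2 fold change 1.47, SE 0.27, adjusted p = 0.00369), where 3.06% of tested genes were higher and 1.28% lower. The same comparison gave 0.62 for Ctsd (adjusted p = 0.235) and 0.23 for Ctsk (95% interval -1.03 to 1.49). Over the 10 genes the median log2 fold change from naive was 0.11 at 2 weeks and 0.23 at 3 weeks, against 0.03 and 0.00 over all tested genes. On each of the 3 lanes taken alone, Ctsk, Ctsl and Ctsd were higher at both times.

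Levels of other cell types' markers moved in the same libraries. The 6 fibroblast markers summed to 19.1 to 40.9 FPKM in naive MacB2, 107 to 160.1 at 2 weeks and 458 to 866 at 3 weeks, with 5 of 6 at 1 FPKM or more in the naive libraries and 6 of 6 in the tumour libraries. Their part in the Ctsk, Ctsl and Ctsd values was not tested. Within MacB3 the same sum was 20.4 to 54.7 at 2 weeks and 182 to 300.3 at 3 weeks. At these times MacB3 averaged 24.4 and 23.1 for Ctsk, 225 and 271 for Ctsl and 1037 and 1199.7 for Ctsd. In MacB2-3wk the library with the highest fibroblast sum (replicate 2, 866) had the middle value of Ctsk (61.9) and the highest of Ctsl (222) and Ctsd (449). The alveolar macrophage markers summed to 391 to 691, 439.8 to 495 and 184 to 405 FPKM, with the highest single library among the naive ones. Most of that sum was Chil3 and Ear2, while Marco averaged 1.67, 12.1 and 26.5 and Plet1 10.7, 24.1 and 30.1. Siglecf averaged 0.942, 3.39 and 3.00. By contrast, Fabp4 fell (28.2, 20.5 and 16.1), as did Pparg (10.5, 5.06 and 2.44), and Car4 averaged 29.3, 41.1 and 5.68. The 6 epithelial markers summed to 3113 to 10294, 396 to 2443 and 597 to 852 and the 6 monocyte markers to 4354 to 5956, 2901 to 3404 and 1399.6 to 1762, so that both sums were lower in every tumour library than in every naive one. Most of the epithelial sum was Scgb1a1, and Krt18 of the same list went the other way (1.64, 7.05 and 39.8 on average). The 6 neutrophil markers, with Ly6g at 0, summed to 39.1 to 78.2, 81.4 to 271 and 138 to 214, higher in every tumour library than in every naive one. The part of these differences in the protease values was not tested.

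**Figure D3:**
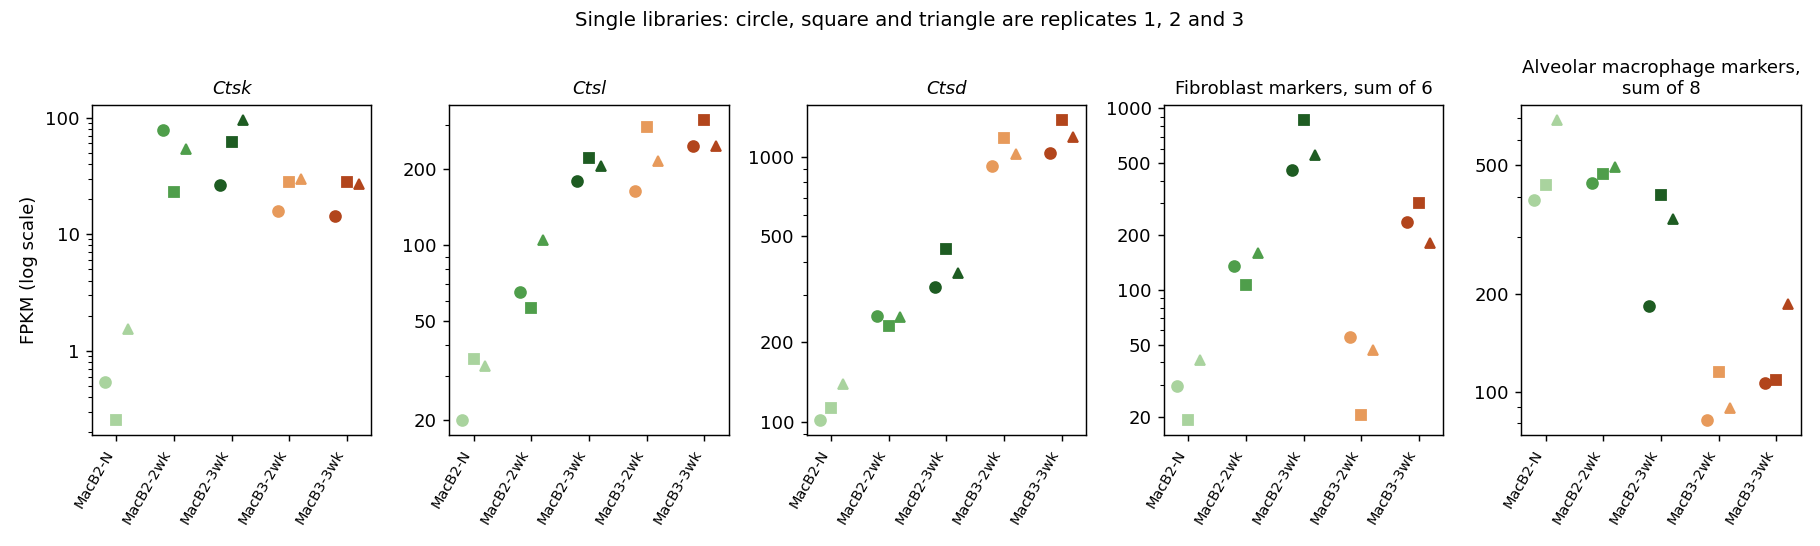
FPKM (log axes) of Ctsk, Ctsl and Ctsd and the summed FPKM of 6 fibroblast and 8 alveolar macrophage markers in the MacB2 and MacB3 libraries, with symbols for replicates. Ctsk, Ctsl and Ctsd separate the naive from the tumour MacB2 libraries, and so does the fibroblast sum.

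Whether the tumour changed MacB2 and MacA cells differently was tested as an interaction at 2 weeks. By limma none of the 10 passed, and 0.221% of tested genes passed. An unadjusted p under 0.05 was found for 2 (Ctsk and Ctsd), for which the share of all tested genes is not given here. For Ctsk the difference between the 2 log2 fold changes was 3.71 (95% interval 1.93 to 5.49, adjusted p = 0.0832). With a pseudocount of 0.1 in place of 1 it was 4.92 and passed (adjusted p = 0.0454). For Ctsd it was 1.08 (95% interval 0.19 to 1.96, adjusted p = 0.393) and for Ctsl 0.55 (95% interval -0.24 to 1.35).

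MacB3 cells held more of most of these proteases than MacB2 cells of tumour lungs at the same time. At 2 weeks 7 of 10 were higher (Ctsb, Ctsc, Ctsd, Ctsl, Ctss, Ctsz and Lgmn) and none lower, where 3.15% of tested genes were higher and 4.21% lower. Lgmn differed most, with 648 against 121 FPKM (log2 fold change 2.44, SE 0.29, adjusted p = 2.26e-05). Ctsd followed at 1037 against 243 (log2 fold change 2.08, SE 0.30, adjusted p = 0.000157). The log2 fold changes of Ctsl, Ctsb, Ctsc, Ctsz and Ctss were 1.58, 1.51, 1.505, 1.34 and 1.18, with a largest adjusted p of 0.0012. Ctsh (0.75, adjusted p = 0.136) and Ctsa (0.68, adjusted p = 0.307) did not pass.

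At 3 weeks 7 of 10 were again higher and none lower, where 1.61% of tested genes were higher and 1.03% lower. These were Ctsb, Ctsc, Ctsd, Ctsh, Ctss, Ctsz and Lgmn. Lgmn was at 672 against 163 FPKM (log2 fold change 2.03, SE 0.29, adjusted p = 0.000307), Ctsd at 1199.7 against 379 (log2 fold change 1.66, SE 0.30, adjusted p = 0.00268) and Ctsb at 1014 against 352 (log2 fold change 1.504, SE 0.19, adjusted p = 6.27e-05). Ctsl, with a log2 fold change of 0.41 (95% interval -0.15 to 0.97, adjusted p = 0.525), did not pass. The call of Ctsh (1.28, adjusted p = 0.0249) was lost when any library of the 2 groups other than MacB2-3wk replicate 3 was left out, with adjusted p of 0.0502 to 0.124. Ctsk was the one gene with a negative log2 fold change, -0.93 (95% interval -2.19 to 0.33) at 2 weeks and -1.25 (-2.50 to 0.01) at 3 weeks, and did not pass.

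The median log2 fold change of the 10 genes between MacB3 and MacB2 was 1.42 at 2 weeks and 1.31 at 3 weeks, against -0.08 and -0.04 over all tested genes. Taken lane by lane, Lgmn differed by 2.22 to 2.77 on the log2 scale at 2 weeks and 1.99 to 2.11 at 3 weeks, and Ctsb by 1.35 to 1.74 and 1.34 to 1.77. MacB3 also held more of 6 interstitial macrophage markers, with sums of 8562 to 11331 FPKM at 2 weeks and 12129.5 to 15631 at 3 weeks, against 1349 to 1639 and 1650.1 to 2542 in MacB2. Monocyte markers were lower as a sum, at 871 to 1679 against 2901 to 3404 at 2 weeks and 618 to 1218 against 1399.6 to 1762 at 3 weeks. Cx3cr1 of that list was instead higher on average (80.4 against 66.4 and 98.0 against 35.0). Alveolar macrophage markers summed to 81.8 to 115 against 439.8 to 495 at 2 weeks and 106 to 187 against 184 to 405 at 3 weeks. Of these, Fabp4 was higher on average at both times (40.3 against 20.5 and 31.5 against 16.1) and Pparg at 3 weeks (4.06 against 2.44). The part of these markers in the protease differences was not tested. Between 2 and 3 weeks within MacB3, none of the 10 passed by limma, none had an unadjusted p under 0.05, and 0.315% of tested genes passed. The log2 fold changes ran from -0.58 for Ctsa to 0.30 for Ctsl, with 95% intervals as narrow as -0.26 to 0.52 for Ctsb and as wide as -1.35 to 1.17 for Ctsk.

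**Figure D4:**
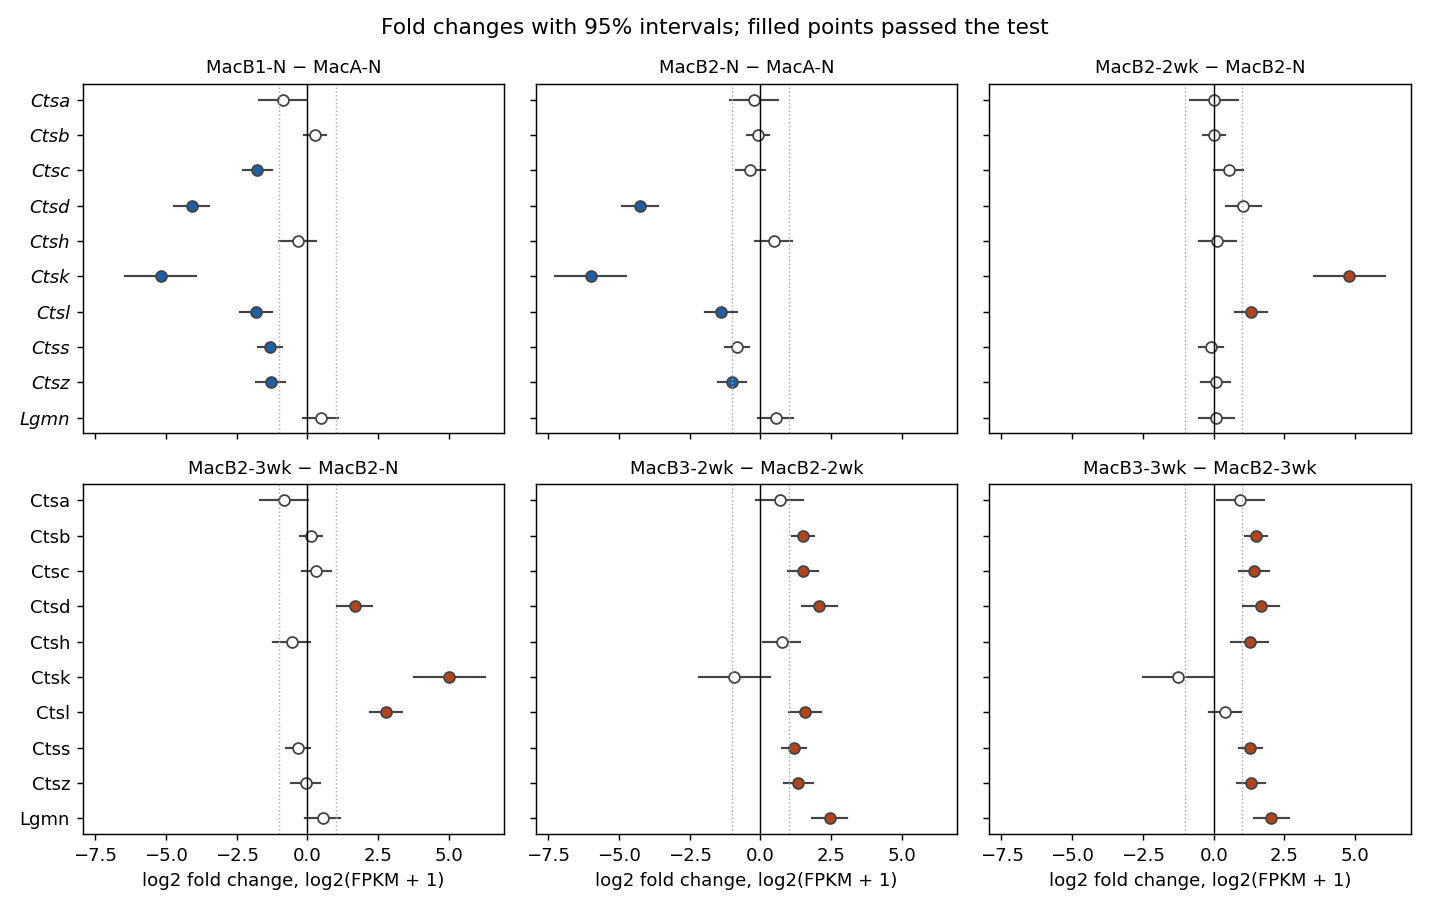
Log2 fold changes of log2(FPKM + 1) (horizontal axis) with 95% intervals for the 10 genes in 6 comparisons; filled points passed the test and dotted lines mark a 2-fold difference. In MacB3 against MacB2 most points lie to the right at both times, whereas in MacB2 of tumour against naive lungs the filled points are Ctsk and Ctsl, joined by Ctsd at 3 weeks.

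Set against MacA cells of the same time, MacB3-2wk showed differences in both directions. Ctsb, Ctsc, Ctsh and Lgmn were higher and Ctsd and Ctsk lower, where 7.20% of tested genes were higher and 7.28% lower. Lgmn was at 648 against 97.6 FPKM (log2 fold change 2.78, SE 0.29, adjusted p = 9.13e-07) and Ctsh at 1201 against 343 (log2 fold change 1.89, SE 0.31, adjusted p = 0.000169). Ctsc (1.54) and Ctsb (1.15) differed less, and after quantile normalization both fell under the threshold (0.96 and 0.60). Ctsb was also under it without MacA-2wk replicate 3 (0.93). Ctsk was at 24.4 against 236 (log2 fold change -3.22, SE 0.60, adjusted p = 0.000581). Ctsd was at 1037 against 2335 (log2 fold change -1.09, SE 0.30, adjusted p = 0.0127), a call that was lost without MacA-2wk replicate 1 or 2 (adjusted p = 0.0714 and 0.06) and when the 2 groups were fitted alone (adjusted p = 0.0866). Ctss differed by 0.17 (95% interval -0.25 to 0.59). Ctsz (0.85, adjusted p = 0.0149) stayed under the 2-fold limit, and passed it without MacA-2wk replicate 1 or MacB3-2wk replicate 2.

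Both CD11c+ MacB populations could be compared as well, although MacB1 came from naive and MacB3 from tumour lungs, so population and tumour cannot be told apart. All 10 genes were higher in MacB3-2wk than in MacB1-N, where 8.32% of tested genes were higher and 13.1% lower, and the median log2 fold change was 2.15 against -0.11 over all tested genes. The values ran from 1.15 for Ctsb and 1.34 for Ctsa to 3.31 for Ctsl and 3.45 for Ctsc. Quantile normalization took Ctsa (adjusted p = 0.0751) and Ctsb (log2 fold change 0.76) below the threshold. Ctsa also lost its call without MacB1-N replicate 3 or MacB3-2wk replicate 3 (adjusted p = 0.0627 and 0.0542).

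The main inhibitor genes Cst3 and Cstb differed in where they were highest. Cst3, which encodes the secreted inhibitor cystatin C, was highest where the summed protease level was lowest, at 5664 ± 870.5 FPKM in MacB1-N (SD, n = 3) against 962 ± 234 in MacA-N (log2 fold change 2.57, adjusted p = 9.89e-09). In MacB2 it averaged 3334, 2603 and 1377 in naive lungs and at 2 and 3 weeks, and was lower at 3 weeks than in naive lungs (log2 fold change -1.26, SE 0.20, adjusted p = 0.000167). Cstb, which encodes the cytosolic inhibitor stefin B, was instead highest in MacB3-2wk, at 1198 ± 81.3, and lowest in MacB1-N, at 58.04 ± 14.5. It was higher in MacB2-2wk than in MacB2-N (log2 fold change 1.41, SE 0.31, adjusted p = 0.0219), in MacB2-3wk than in MacB2-N (log2 fold change 1.88, SE 0.31, adjusted p = 0.000259) and in MacB3-2wk than in MacB2-2wk (log2 fold change 1.498, SE 0.31, adjusted p = 0.0043). Cst7, which encodes cystatin F, an inhibitor of cathepsin C among others, averaged 10.4 FPKM in MacB3-2wk, the group with the highest Ctsc, against 3.62 in MacB2-2wk (log2 fold change 1.30, SE 0.36, adjusted p = 0.0265). Of 17 cystatin and stefin genes matched, 7 were tested, and 3 were higher and 1 lower in MacB2-3wk than in MacB2-N, while 2 were higher and 0 lower in MacB3-2wk than in MacB2-2wk. Of all tested genes, 9.67% were higher and 5.04% lower in the first comparison, and 3.15% and 4.21% in the second.

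**Figure D5:**
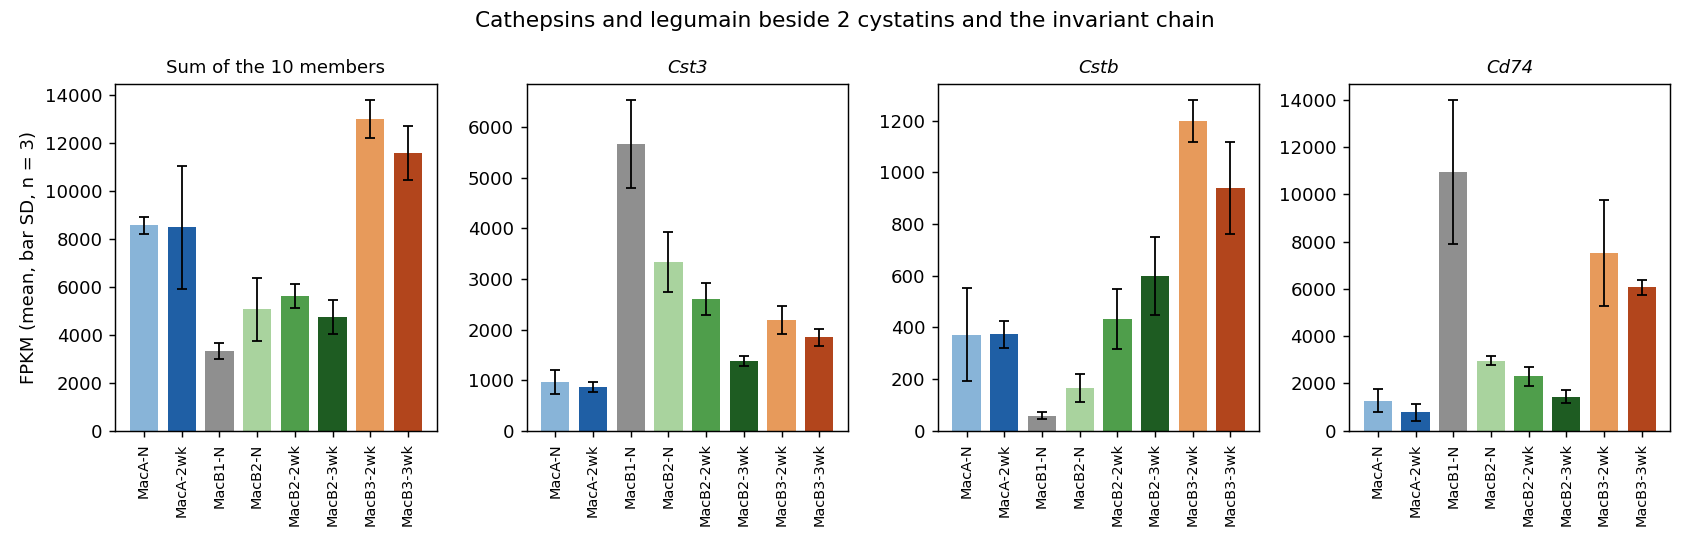
Mean FPKM by group (bars from 0, with SD, n = 3) of the sum of the 10 proteases, the inhibitor genes Cst3 and Cstb, and Cd74, which encodes the invariant chain. Cst3 is highest in MacB1-N, where the protease sum is lowest, whereas Cstb and the protease sum are both highest in MacB3-2wk.

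Cd74, which encodes the invariant chain that cathepsin S and, in some cells, cathepsin L process, averaged 7517 FPKM in MacB3 at 2 weeks, 6061 at 3 weeks and 10941 in MacB1-N, against 776 to 2961 in the MacA and MacB2 groups. MacB1-N thus had the highest Cd74 and the lowest Ctss, whereas both were high in MacB3. In MacB3-2wk against MacB2-2wk, 5 of 11 class II presentation genes were higher and none lower, among them H2-Eb1 (log2 fold change 2.54, adjusted p = 6.96e-05) and Cd74 (1.68, adjusted p = 0.00291). At 3 weeks 7 of 11 were higher. Over all tested genes 3.15% were higher at 2 weeks and 1.61% at 3 weeks. In MacB2, 4 of 11 were lower at 3 weeks than in naive lungs and none higher, where 5.04% of tested genes were lower, with Cd74 at -1.06 (adjusted p = 0.0295). Of the 7 granule proteases that cathepsin C activates, 3 were tested and 2 were lower in MacB3-2wk than in MacB2-2wk, where Ctsc was higher. These were Prtn3, which encodes proteinase 3 (8.01 against 37.8 FPKM, adjusted p = 0.00571), and Gzmb, which encodes granzyme B (0.218 against 3.20 FPKM, adjusted p = 0.0239). Of all tested genes, 4.21% were lower in this comparison and 3.15% higher. Gzmb was low in both groups. The 6 T and NK cell markers summed to 4.58 to 9.69 FPKM in MacB3-2wk against 20.8 to 26.1 in MacB2-2wk. The 6 neutrophil markers summed to 44.3 to 80.5 against 81.4 to 271, and the 6 monocyte markers to 871 to 1679 against 2901 to 3404. Within these lists, Retnlg (0.297 against 0.230) and Cx3cr1 (80.4 against 66.4) were instead higher on average in MacB3-2wk. Their part in the Prtn3 and Gzmb values was not tested.

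The other lysosomal hydrolases, a list of 37 tested genes, were read beside the cathepsins. In MacB1-N 3 were higher and 22 lower than in MacA-N, and in MacB2-N 3 were higher and 13 lower. Over all tested genes 15.0% were higher and 8.71% lower in MacB1-N, and 10.7% and 10.2% in MacB2-N. Among the lower ones in both were Pla2g15, a lysosomal phospholipase (-3.55 and -3.41), and Lipa, the acid lipase (-2.09 and -2.11). Sgsh, a heparan sulfatase, was higher in both (3.74 and 3.67). In MacB3 against MacB2, 12 were higher and none lower at 2 weeks, and 10 and none at 3 weeks, against 3.15% and 1.61% of all tested genes higher. Among them were Acp2, an acid phosphatase (2.16 and 2.01), and Pla2g15 (1.204 and 1.19). In MacB2 at 3 weeks, 4 were higher and 5 lower than in naive lungs, against 9.67% and 5.04% of all tested genes, with Acp5, the tartrate-resistant acid phosphatase that osteoclasts share with cathepsin K, at 153 against 12.6 FPKM (log2 fold change 3.51, SE 0.45, adjusted p = 2.02e-05). Acp5 was the 1 hydrolase of the list that passed at 2 weeks (log2 fold change 3.20, SE 0.45, adjusted p = 0.000624). There, 1.66% of all tested genes were higher and 0.227% lower. The median log2 fold change of the list was 0.594 between MacB3-2wk and MacB2-2wk and 0.0414 between MacB2-3wk and MacB2-N.

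Of 13 lysosomal membrane genes, Gpnmb and Cd63 were higher in MacB2 of tumour lungs at both times. Gpnmb, a transmembrane glycoprotein gene of the MiT/TFE programme, averaged 1.55, 42.5 and 86.5 FPKM in naive lungs and at 2 and 3 weeks (adjusted p = 0.000487 and 2.35e-06 against naive). Cd63 averaged 3.30, 18.9 and 44.8 (adjusted p = 0.00221 and 2.55e-06). No other gene of this list passed in MacB2 at either time. Of all tested genes, 1.66% were higher and 0.227% lower at 2 weeks, and 9.67% and 5.04% at 3 weeks. In MacB3-2wk against MacB2-2wk, 5 of 13 were higher and none lower, where 3.15% of tested genes were higher and 4.21% lower. The log2 fold changes were 3.21 for Gpnmb and 1.22 for Cd68.

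Among 14 genes for sorting to lysosomes and for their regulation, 6 were lower and 1 higher (Igf2r, which encodes a mannose 6-phosphate receptor) in MacB1-N than in MacA-N, and 6 were lower and 0 higher in MacB2-N. Of all tested genes, 8.71% were lower and 15.0% higher in MacB1-N, and 10.2% and 10.7% in MacB2-N. Tfec, an MiT/TFE family transcription factor gene, averaged 46.5 FPKM in MacA-N, 0.720 in MacB1-N and 2.58 in MacB2-N (log2 fold changes -4.95 and -3.76). It was higher in MacB2-2wk (7.89 FPKM, log2 fold change 1.32, SE 0.32, adjusted p = 0.0354) and MacB2-3wk (8.50 FPKM, log2 fold change 1.44, SE 0.32, adjusted p = 0.00312) than in MacB2-N. Mitf was also lower in naive MacB1 and MacB2 than in MacA (-2.14 and -1.69), as was Sort1, which encodes the sorting receptor sortilin (-2.43 and -2.91). Sort1 was lower in MacB3-2wk than in MacB2-2wk (log2 fold change -1.73, SE 0.24, adjusted p = 0.000111), where 7 of the 10 proteases were higher.

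All 14 further cathepsin genes sought were matched and 4 were tested, so those with group means under 1 FPKM throughout have no test. Ctse, an aspartic protease of endosomes, was highest in MacB2-N. In MacB2 it averaged 42.98 FPKM in naive lungs, 34.6 at 2 weeks and 19.8 at 3 weeks. The other groups averaged 0.439 in MacA-N to 12.8 in MacB1-N. It was lower at 3 weeks than in naive MacB2 (log2 fold change -1.02, SE 0.31, adjusted p = 0.0233) and lower in MacB3-2wk than in MacB2-2wk (log2 fold change -1.91, SE 0.31, adjusted p = 0.000454), in both of which Ctsd was higher.

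The genes whose level followed each protease most closely over the 24 libraries were taken from 5846 candidates by Pearson's r of log2(FPKM + 1). These libraries share groups and lanes, so r is a description across population and tumour status and carries no test. Ctsd went with Bhlhe41, a transcription factor gene of alveolar macrophages (r = 0.978), and Tpp1, a lysosomal tripeptidyl peptidase gene (0.970). Ctsc went with Mfsd1 (0.962) and Trem2 (0.951), and Ctsz with Hexa (0.966) and Cd68 (0.940). Lgmn went with Folr2, a folate receptor gene of tissue macrophages (0.952), and Dnase1l3 (0.942). Ctsl went with Psmd1, a proteasome subunit gene (0.936), and Ldha, a lactate dehydrogenase gene (0.933). Ctsk went with Mmp19, a matrix metalloproteinase gene (0.918), Ctss with Tmem86a (0.936) and Ctsh with Milr1 (0.922). The closest gene to Ctsb was Lgmn (0.915). Ctsa had the weakest best match, Atp5g3, a mitochondrial ATP synthase subunit gene (0.834).

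Between the 10 genes themselves, r over the 24 libraries was highest for Ctsb with Lgmn (0.915) and Ctss with Ctsz (0.906), and lowest for Ctsh with Ctsk (-0.191). The E-box carriers Ctsd and Ctsa shown above had an r of 0.342, and the neighbours Ctsk and Ctss one of 0.477. Some pairs alike across groups were not alike within them. After subtraction of the group means, r was 0.756 for Ctsd with Ctsk and 0.821 for Ctsc with Ctsh, but -0.0433 for Ctsc with Ctsl, whose r over all libraries was 0.802.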

How the data were processed

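FPKM values per gene (fragments scaled to transcript length and library size) were taken from the table the authors deposited, for 24 libraries. TopHat2 2, Cufflinks 2.0.2 and FastQC are named with mm10 in the submitters' processing notes. Strand use and filters are not given in the sources used here. MicroRNA genes held 43.7 to 75.1% of each library's summed FPKM. The table's loci overlapped those of GENCODE M21 for 4218 of 32917 genes matched by Ensembl identifier and for 0 of the 10 proteases, so positions were taken from GENCODE M21.

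With limma 3.58.1 in R 4.3.3 (trended prior variance), log2(FPKM + 1) of all 24 libraries was fitted with 1 mean per group for the 17156 genes whose mean reached 1 FPKM in at least 1 group. P-values were adjusted by Benjamini-Hochberg over these genes in each of 12 comparisons and 1 interaction, and a gene was called at an adjusted p under 0.05 and a fold of at least 2. A fold change on this scale understates the change of low genes. The fit was also run on simulated data with independent normal noise around group means. That run held no lane effect, pairing or mixture of cell types, so it cannot show how the fit handles them. The labels do not say whether a replicate number marks the same experiment across groups, and the main fit did not pair libraries by it. Members and lists were chosen with earlier results of these data known. Within each list, up to 4 called genes with the smallest adjusted p per comparison could be named, and a gene so named could be given in other comparisons, while Cst3 and Cd74 could be named anywhere. Genes most like a protease were the 3 with the highest r among tested genes with a group mean of at least 20 FPKM, of which up to 2 are printed. A gene of these lists is not reported here. Igf2r, Marco, Plet1, Chil3, Ear2, Siglecf (as an alveolar macrophage marker), Fabp4, Pparg, Car4, Cx3cr1, Retnlg, Scgb1a1 and Krt18 were singled out after their values were seen. Alternatives were a pseudocount of 0.1, no filter, median-ratio scaling, quantile normalization, a replicate block, a fit of only the groups compared, and leaving out each library. The sample titles were followed for the MacB3 group at 2 weeks, which the series text names differently. FPKM gives no counts, so no counting interval is given. Shares of all tested genes are given for calls, and not for unadjusted p-values or for groups whose libraries do not overlap. Counts and statements of those therefore stand without a background.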

Additional observations from a re-analysis of the deposited data

How the results depend on the processing

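Over 13 comparisons of 10 proteases, the alternatives gave 1620 values, of which 1595 stayed on the same side of the threshold, 21 lost the call and 4 gained it. No called difference changed direction, whereas some differences that had not passed changed sign (such as Ctsd in MacB1-N against MacB2-N). Of 47 calls, 38 held under every alternative, and the others stand with their values in the report. The count of proteases called was 1 in MacB1-N against MacB2-N and 0 when these groups were fitted alone (1 to 2 with a library left out, 2 without MacB2-N replicate 3). It was 2 in MacB2-2wk against MacB2-N and 1 when fitted alone (1 to 2 with a library left out, 1 without MacB2-N replicate 1 or MacB2-2wk replicate 3). For the interaction it was 0, and 1 with a pseudocount of 0.1. The labels do not say whether replicate numbers pair the libraries. Deviations of same-numbered libraries correlated at -0.0726 to 0.21, and in no comparison did all 3 numbers pass 0.1. This check cannot exclude pairing, and same-numbered MacB libraries shared a lane. With the replicate block the same proteases were called in every comparison. The block moved the count of all genes called for the interaction from 38 to 24. Fitting only the groups compared, with fewer libraries, moved counts over all genes from 893 to 333 in MacB1-N against MacB2-N, from 135 to 3 in MacA-2wk against MacA-N, from 323 to 36 in MacB2-2wk against MacB2-N and from 38 to 5 for the interaction. It moved MacB2-3wk against MacB2-2wk from 744 to 312. A pseudocount of 0.1 moved them to 238 in MacA-2wk against MacA-N, 493 in MacB2-3wk against MacB2-2wk, 19 (from 54) in MacB3-3wk against MacB3-2wk and 89 for the interaction, and quantile normalization gave 27 in MacB3-3wk against MacB3-2wk. Without the filter the interaction gave 23. With a library left out, all-gene counts spanned 607 to 1399 in MacB1-N against MacB2-N (highest without MacB2-N replicate 3), 88 to 249 in MacA-2wk against MacA-N (lowest without MacA-N replicate 2, highest without MacA-2wk replicate 2) and 141 to 295 in MacB2-2wk against MacB2-N (lowest without MacB2-2wk replicate 3). They spanned 459 to 749 in MacB2-3wk against MacB2-2wk (main 744), 296 to 377 in MacB3-3wk against MacB2-3wk (main 453), 11 to 39 in MacB3-3wk against MacB3-2wk and 17 to 57 for the interaction. The cause of these moves was not tested. Quantile normalization moved the share of called genes that were higher from 63.2 to 47.2% in MacB1-N against MacA-N, from 67.3 to 50.1% in MacB1-N against MacB2-N, from 87.9 to 74.6% in MacB2-2wk and from 65.7 to 52.7% in MacB2-3wk against MacB2-N, from 42.8 to 56.2% in MacB3-2wk against MacB2-2wk, from 88.9 to 77.8% in MacB3-3wk against MacB3-2wk and from 38.8 to 51.8% in MacB3-2wk against MacB1-N. It moved the median log2 fold change of all tested genes from 0.12 to -0.03 in MacB1-N against MacA-N, from 0.09 to -0.02 in MacB1-N against MacB2-N and from -0.11 to 0.01 in MacB3-2wk against MacB1-N, and no called protease changed direction. The absolute depth is unknown from FPKM, which leaves the precision of low values such as Ctsk in naive MacB cells unknown.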

Other observations

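The endosomal Toll-like receptors, which lysosomal proteases including legumain cleave into their active form, were measured in the same libraries. Of 6 genes (5 receptors and the chaperone gene Unc93b1), 3 were higher and 1 lower in MacB2-N than in MacA-N, against 10.7% and 10.2% of all tested genes. Tlr9 averaged 1.22 ± 0.347 FPKM in MacA-N and 123 ± 26.4 in MacB2-N (SD, n = 3; log2 fold change 5.79, SE 0.18, adjusted p = 1.04e-13 by limma), and Tlr13 averaged 112 and 1144 (log2 fold change 3.94, adjusted p = 0.00303). In MacB2 at 3 weeks, Tlr7 (35.7 against 119.8 FPKM, log2 fold change -1.70, SE 0.33, adjusted p = 0.000981) and Tlr9 (57.001 against 123 FPKM, log2 fold change -1.08, SE 0.18, adjusted p = 0.000234) were lower than in naive lungs, a comparison in which Ctsk, Ctsl and Ctsd were higher. None of the 6 was higher in that comparison, in which 9.67% of all tested genes were higher and 5.04% lower. None of the 6 passed between MacB3 and MacB2 at either time by limma, and 2 of the 6 at 2 weeks and 2 at 3 weeks had an unadjusted p under 0.05. Of all tested genes, 3.15% were higher and 4.21% lower at 2 weeks and 1.61% and 1.03% at 3 weeks, so a count of 0 of 6 is near the background.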
